A study of Rattus norvegicus with 4 samples.

Results

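The mevalonate pathway turns acetyl-CoA into the isoprenoid building blocks from which cholesterol and the lipid anchors of many proteins are made. The genes described here are 7 of its enzymes: Acat2, Hmgcs1, Mvk, Pmvk, Mvd, Idi1 and Fdps. They were picked by symbol, with earlier results of these data known, out of 16881 gene symbols in the count tables. All 7 were in the tables, each on a single row, and all 7 reached 10 counts in some library, the filter that 10516 symbols passed and that made them the genes tested.

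The cells were wild-type rat neural stem/progenitor cells (NSPCs), grown on bare PUCL or on PUCL@CNT1, an electroconductive nanohybrid scaffold. The libraries were PUCL@CNT1 in differentiation medium, PUCL in differentiation medium, PUCL@CNT1 in maintenance medium and PUCL in maintenance medium, with 1 library each. Maintenance medium is a stemness-maintaining knockout DMEM/F12 with a neural supplement, sampled at 24 h, and differentiation medium is B-27 Plus neuronal culture medium, in which cells spent a further 1.5 d, so that medium and time in culture cannot be told apart. The study asked what changes in gene expression accompany directed differentiation on the 2 platforms. No group had a replicate, and the labels do not say how many cultures or animals a library came from.

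In the cell, cytosolic thiolase (Acat2) joins 2 acetyl-CoA molecules, and Hmgcs1 adds another to give HMG-CoA, from which mevalonate is made. The kinases Mvk and Pmvk phosphorylate mevalonate, the decarboxylase Mvd makes isopentenyl diphosphate, the isomerase Idi1 converts it to its reactive isomer, and Fdps condenses these units to farnesyl diphosphate, where the sterol branch and the prenyl branch part. Transcription of the pathway is known to be driven by the sterol-sensing factor SREBP-2 (Srebf2), which acts at promoters together with the CCAAT-binding factor NF-Y and with Sp1. Brain cells make most of their own cholesterol, and growing progenitors need it for membranes.

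The promoters are shown first because the 7 genes are thought to share this control. The part of this control in the changes of level below was not tested. Windows from 250 bases before to 50 bases after the annotated start were taken from RefSeq (assembly GRCr8), which held one for 6 of the 7 genes; Pmvk had no entry. The build of the count tables is rn6, so the windows serve for their sequence only. The Acat2 window is that of the RefSeq symbol. Whether the counted Acat2 is this locus or its near copy Acat2l1 is not given in the sources used here. The 4 printed windows are those of Hmgcs1 and Fdps, whose fall had the smallest p-values, of Mvk, with the most CCAAT matches, and of Acat2, with none. Capitals mark CCAAT on either strand (read as ATTGG on the other), 5′ to 3′ along the gene's own strand. They lie at chr2:53382054-53382353 (plus strand) for Hmgcs1, at chr2:176804767-176805066 (minus strand) for Fdps, at chr12:47819454-47819753 (minus strand) for Mvk and at chr1:50100590-50100889 (plus strand) for Acat2.
Hmgcs1: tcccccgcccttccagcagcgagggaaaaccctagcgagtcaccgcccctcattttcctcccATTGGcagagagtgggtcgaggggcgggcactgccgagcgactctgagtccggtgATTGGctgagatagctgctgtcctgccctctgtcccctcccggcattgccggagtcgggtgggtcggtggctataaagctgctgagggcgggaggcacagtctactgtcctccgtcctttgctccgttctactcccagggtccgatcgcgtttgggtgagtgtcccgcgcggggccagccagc
Fdps: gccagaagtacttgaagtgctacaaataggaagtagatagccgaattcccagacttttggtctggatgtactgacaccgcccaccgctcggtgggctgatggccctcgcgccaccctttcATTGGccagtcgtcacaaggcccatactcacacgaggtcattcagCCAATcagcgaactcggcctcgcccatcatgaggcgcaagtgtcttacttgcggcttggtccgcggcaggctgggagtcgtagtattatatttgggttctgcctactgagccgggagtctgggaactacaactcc
Mvk: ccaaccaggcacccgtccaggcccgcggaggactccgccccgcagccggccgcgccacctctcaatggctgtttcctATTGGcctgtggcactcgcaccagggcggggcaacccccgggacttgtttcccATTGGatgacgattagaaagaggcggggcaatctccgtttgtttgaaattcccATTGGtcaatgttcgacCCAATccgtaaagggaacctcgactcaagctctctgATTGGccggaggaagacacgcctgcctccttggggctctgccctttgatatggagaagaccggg
Acat2: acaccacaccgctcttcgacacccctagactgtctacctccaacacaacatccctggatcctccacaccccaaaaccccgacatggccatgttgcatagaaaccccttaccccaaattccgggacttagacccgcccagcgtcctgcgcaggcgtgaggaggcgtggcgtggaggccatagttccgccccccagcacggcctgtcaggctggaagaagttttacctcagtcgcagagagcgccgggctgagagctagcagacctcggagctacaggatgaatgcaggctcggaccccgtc

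CCAAT was present at least 2 times in 5 of the 6 windows, with 5 matches in Mvk and 2 each in Hmgcs1, Mvd, Idi1 and Fdps. Of 8432 windows of the tested genes, 14.0% held 2 or more and 37.6% held at least 1; of all 33469 windows, 11.2% and 37.5% did. Counting from the annotated start, the Hmgcs1 matches began at bases -188 and -133, those of Fdps at -130 and -85, those of Idi1 at -66 and -35 and those of Mvd at -35 and -2. The GC box GGGCGG occurred in 5 of the 6 windows (63.9% of windows of tested genes), and the E-box letters CANNTG in 3 of 6 (62.0%). The sterol element letters TCACNCCA occurred in none of the 6 windows (3.31% of windows of tested genes), which says only that these letters are not in them. All motifs were searched on both strands, and no match of 1 motif overlapped a match of another. A match is a description of letters and not of a bound site.

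The 4 libraries held between 6035848 and 6855984 counts, with 9584 to 9842 symbols detected in each. Markers of neural stem/progenitor cells were present in every library: the 8 listed (Nes, Sox2, Vim, Fabp7, Sox9, Pax6, Hes1, Notch1) summed to 10798 CPM (counts divided by library size and edgeR's TMM factor) on PUCL@CNT1 and 8246 CPM on PUCL in differentiation medium, against 7022 CPM on PUCL@CNT1 and 6622 CPM on PUCL in maintenance medium. Of these 8, 3 rose with the medium: Vim, Fabp7 and Hes1. Vim gave most of each sum. It stood at 7635 CPM on PUCL@CNT1 and 4814 CPM on PUCL in differentiation medium, against 4795 and 4314 CPM in maintenance medium. Sums of other markers differed between the media too, and are given with PUCL@CNT1 before PUCL. The 5 mural and fibroblast markers summed to 364 and 500.4 CPM in differentiation medium, against 763 and 1084 CPM in maintenance medium. Of these 1 of 5 fell, Acta2, which gave most of each sum (343 and 499 CPM, against 747 and 1049 CPM). Col1a1 had a fitted log2 change of 0.98, Pdgfrb and Col1a2 had changes below 0, and Lum was at 0. The 5 neuron markers summed to 54.3 and 86.8 CPM against 112 and 129 CPM (0 of 5 passed in edgeR, 2 at an unadjusted p under 0.05). They did not move together: Tubb3 and Dcx had fitted log2 changes of 0.70 and 0.65, while Map2, Snap25 and Rbfox3 had changes below 0. The 5 oligodendrocyte markers summed to 882 and 854 CPM against 543 and 611 CPM (3 of 5 rose). The 5 astrocyte markers, with Slc1a2 at 0, summed to 114 and 616 CPM against 88.5 and 105 CPM (1 of 5 rose, S100b). Nearly all of each sum was S100b (114 and 609 CPM, against 85.5 and 104 CPM). Microglia markers summed to 7.27 CPM at most, with Aif1, Ptprc, Cx3cr1 and Csf1r at 0, and endothelial markers to 29.5 CPM at most, with Pecam1 and Cdh5 at 0. The part of these shifts in the results below was not tested, and in bulk samples fewer cells of a type and less RNA per cell cannot be told apart.

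All 7 mevalonate enzymes had lower levels in differentiation medium than in maintenance medium on both platforms, and 5 of them fell in the test across libraries. These 5 were Hmgcs1, Fdps, Idi1, Mvd and Acat2, with fitted changes between 1.48-fold (Idi1) and 4.01-fold (Mvd). Mvk and Pmvk, the 2 kinases in the middle of the pathway, were lower in the same direction but did not pass. The test was edgeR's quasi-likelihood F test, fitted to the 4 libraries with 1 term for medium and 1 for platform, Benjamini-Hochberg adjustment over all 10516 genes and a threshold of 0.05. It leaves 1 residual degree of freedom and borrows the rest of its spread from other genes. Among all genes tested 1.02% fell and 1.8% rose by this rule, 28.7% had ratios below 0 on both platforms, and the median fitted log2 change was 0.00 (quartiles -0.57 and 0.62), against -1.31 for the 7 enzymes.

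**Figure D1:**
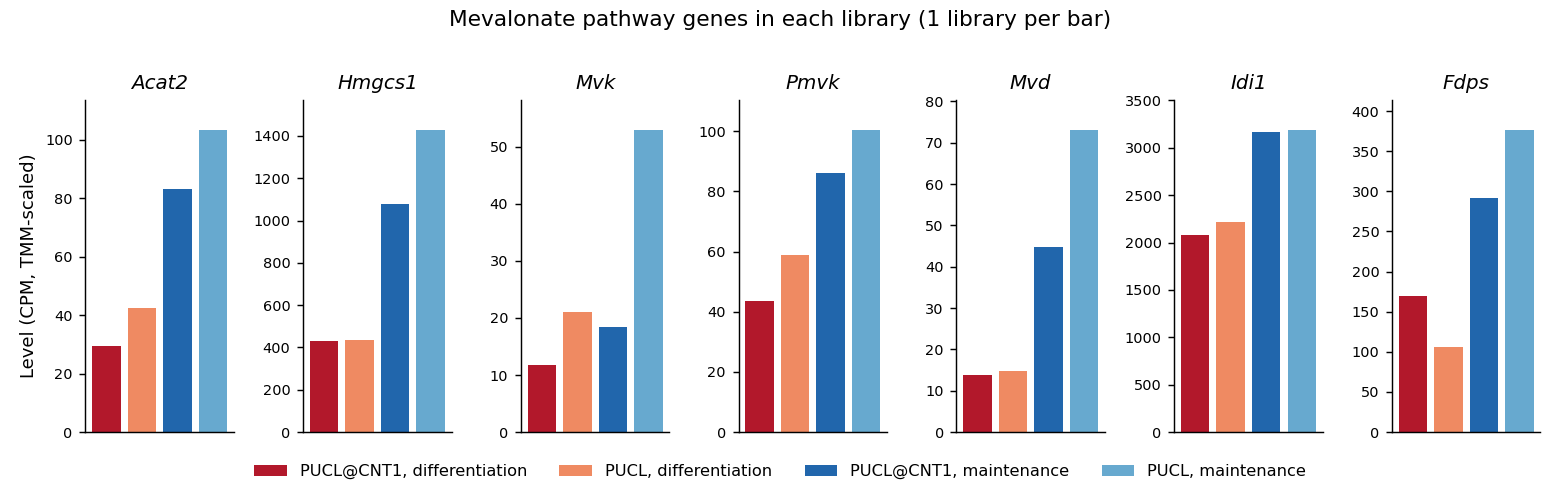
Level of each enzyme gene (vertical axis, CPM scaled by TMM, a separate scale for each gene) in the 4 libraries, 1 bar per library, with differentiation medium in reds and maintenance medium in blues. In 6 of the 7 panels both differentiation bars are below both maintenance bars, the exception being Mvk, and the PUCL maintenance bar is the highest in all 7.

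Acat2, the first enzyme, stood at 29.3 CPM on PUCL@CNT1 and 42.5 CPM on PUCL in differentiation medium, against 83.1 CPM on PUCL@CNT1 and 103 CPM on PUCL in maintenance medium. Both differentiation libraries were below both maintenance libraries. The fitted log2 change was -1.39 (SE 0.38, edgeR adjusted p 0.0213), with similar ratios on PUCL@CNT1 (2.83-fold lower, exact 95% counting interval 2.40 to 3.36) and on PUCL (2.43-fold lower, 2.11 to 2.81). RefSeq lists a near copy, Acat2l1, and 2 pseudogenes of Acat2, none of which is in the tables, so reads of the copies may be counted as Acat2 or lost. In that annotation Acat2l1 overlaps the chaperonin gene Tcp1, and which of the 2 loci the symbol Acat2 names on rn6 is not given in the sources used here. Tcp1 itself stood at 135 and 99.5 CPM in differentiation medium, against 205 and 233 CPM in maintenance medium (PUCL@CNT1 before PUCL in each), and also fell (fitted log2 -0.92, SE 0.269, adjusted p 0.0408). The part of shared reads in the Acat2 value was not tested.

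Hmgcs1, which makes HMG-CoA, had the clearest fall of the 7 and ranked 6 among the 10516 genes by p-value. Its level was 433 CPM on PUCL@CNT1 and 436 CPM on PUCL in differentiation medium, against 1078 CPM on PUCL@CNT1 and 1428 CPM on PUCL in maintenance medium. The 2 differentiation libraries were nearly level, with an interval for their ratio that includes 1, while the 2 maintenance libraries differed by more than counting error. The fitted log2 change was -1.51 (SE 0.178, edgeR adjusted p 6.85e-10).

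Mvk, mevalonate kinase, was the most shallowly counted of the 7, with 78 and 136 counts in differentiation medium on PUCL@CNT1 and PUCL, against 115 and 349 counts in maintenance medium on PUCL@CNT1 and PUCL. In CPM it stood at 11.7 and 21.0 in differentiation medium and at 18.4 and 52.9 in maintenance medium, in the same order. The groups overlapped, since the PUCL differentiation library was above the PUCL@CNT1 maintenance library. The fitted log2 change was -0.99 (SE 0.609, edgeR adjusted p 0.594). The ratio was 1.57-fold lower on PUCL@CNT1 (interval 1.17 to 2.12) and 2.51-fold lower on PUCL (2.06 to 3.09).

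Pmvk, phosphomevalonate kinase, stood at 43.5 CPM on PUCL@CNT1 and 58.8 CPM on PUCL in differentiation medium, against 86.0 CPM on PUCL@CNT1 and 100.4 CPM on PUCL in maintenance medium. Both differentiation libraries were lower than both maintenance libraries, by 1.98-fold on PUCL@CNT1 (interval 1.71 to 2.29) and 1.71-fold on PUCL (1.50 to 1.94). Its fitted log2 change of -0.88 (SE 0.359) had an unadjusted p of 0.0166 and did not pass after adjustment (edgeR adjusted p 0.235).

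Mvd, the decarboxylase, had the steepest fall of the 7 enzymes on both platforms. It stood at 13.8 CPM on PUCL@CNT1 and 14.7 CPM on PUCL in differentiation medium, against 44.8 CPM on PUCL@CNT1 and 73.1 CPM on PUCL in maintenance medium. As for Hmgcs1, the differentiation libraries were level within counting error and the maintenance libraries were not. The ratio was 3.23-fold lower on PUCL@CNT1 (interval 2.55 to 4.15) and 4.95-fold lower on PUCL (3.98 to 6.26), with a fitted fall of 4.01-fold (SE 0.515 on the log2 scale, edgeR adjusted p 0.0127).

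Idi1, the isomerase, had the smallest ratio of the 7 on both platforms and also the smallest standard error. It stood at 2081 CPM on PUCL@CNT1 and 2212 CPM on PUCL in differentiation medium, against 3168 CPM on PUCL@CNT1 and 3187 CPM on PUCL in maintenance medium. It fell by a fitted 0.57 on the log2 scale (SE 0.134, edgeR adjusted p 0.00564). Its counting intervals (1.49-fold to 1.56-fold lower on PUCL@CNT1, 1.41-fold to 1.47-fold lower on PUCL) did not overlap those of Hmgcs1, Mvd, Acat2, Pmvk or Fdps on the same platform, and overlapped that of Mvk on PUCL@CNT1 alone. The gene Wdr37 overlaps the start of Idi1 in RefSeq; it had 117 to 277 counts per library and did not pass (fitted log2 -0.85, adjusted p 0.672).

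Fdps, farnesyl diphosphate synthase, fell by a fitted 1.31 on the log2 scale (SE 0.251, edgeR adjusted p 0.000307). It was the gene of the 7 whose ratios differed most between the platforms. It stood at 170 CPM on PUCL@CNT1 and 106 CPM on PUCL in differentiation medium, against 292 CPM on PUCL@CNT1 and 376 CPM on PUCL in maintenance medium. The ratio was 1.72-fold lower on PUCL@CNT1 (interval 1.60 to 1.85) and 3.56-fold lower on PUCL (3.27 to 3.88). RefSeq lists 5 Fdps pseudogenes and 1 of Idi1, none of which is in the tables, so the values of both genes carry the doubt of split or lost reads.

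**Figure D2:**
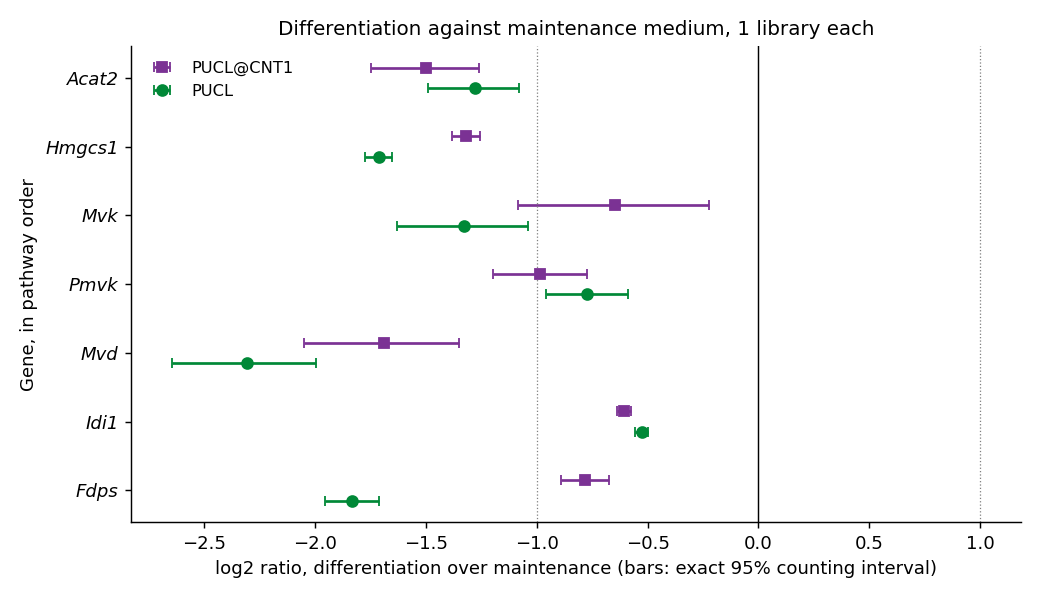
Log2 ratio of differentiation over maintenance medium (horizontal axis) for each enzyme gene in pathway order from top to bottom, on PUCL@CNT1 (squares) and PUCL (circles), with bars for the exact 95% counting interval and dotted lines at 2-fold. All 14 intervals lie below 0, with ratios from -0.53 for Idi1 on PUCL to -2.31 for Mvd on PUCL, and the 2 platforms are farthest apart for Fdps.

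With 1 library a group, single pairs of libraries have no test and were described by size: at least 2-fold, with the nearer bound of the 95% counting interval beyond 1.5-fold. By this rule 3 of the 7 were lower on PUCL@CNT1 (Acat2, Hmgcs1, Mvd) and 5 on PUCL (the same 3, Mvk and Fdps), against 14.5% and 15.2% of all genes tested. The 3 that met it on both platforms compare with 3.52% of all genes. Both differentiation libraries were below both maintenance libraries for 6 of the 7, which held for 19.3% of all genes. The interval lay below 0 on both platforms for all 7, against 16.3% of all genes. Counting intervals leave out the scatter between cultures.

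The number of calls moved with the depth filter, the tool, the terms of the fit and the libraries, for all genes as well as for the 7 enzymes. Where a mean of at least 50 counts was required, 27 of all genes fell, and Hmgcs1 alone of the 7 stayed past the threshold (adjusted p 0.00324). The fitted changes of the 4 lost calls hardly moved (log2 -1.39 for Acat2, -1.30 for Fdps and -0.56 for Idi1), with edgeR adjusted p of 0.0552 to 0.094 for the 4. DESeq2 called Hmgcs1, Fdps and Idi1 among 54 genes that fell. Without the platform term 3 of the 7 and 62 of all genes fell. With 3 libraries the platform term could not be kept, so a fit without 1 library differs in both choices. Without the PUCL@CNT1 differentiation library 2 of the 7 and 101 of all genes fell, and without the PUCL differentiation library 3 of the 7 and 91 of all genes. Without the PUCL@CNT1 maintenance library 1 of the 7 and 6 of all genes fell, and without the PUCL maintenance library 0 of the 7 and 3 of all genes, with Hmgcs1 at an adjusted p of 0.143. All fitted changes of the 7 stayed below 0 in these fits. Mvk moved most, to a log2 change of -0.17 without the PUCL maintenance library, -1.69 without the PUCL@CNT1 maintenance library and -1.60 without the PUCL differentiation library.

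None of the 7 enzymes passed the test for platform (PUCL@CNT1 over PUCL; 0 of 7 in edgeR, also at an unadjusted p under 0.05, with adjusted p from 0.748 to 1.0). DESeq2 and limma-voom also called 0, with 0 and 1 at an unadjusted p under 0.05; DESeq2 gave no adjusted p for 5 of the 7. Of all genes 0.456% passed in edgeR. Both PUCL@CNT1 libraries were below both PUCL libraries for 1 of the 7, Mvk, against 14.9% of all genes. The fitted log2 difference was between -1.19 (Mvk, SE 0.611) and 0.15 (Fdps, SE 0.248), with a median of -0.33 for the 7 and 0.00 for all genes. These directions are not stable: with 1 library left out, where the medium term could not be kept, 6 of the 7 values took either sign over the 4 fits, as for Hmgcs1 (-1.11 to 0.79), Mvd (-1.66 to 1.00) and Fdps (-0.70 to 1.13), while Mvk lay between -1.80 and -0.48. Ribosomal RNA entries took 8.46% and 9.03% of counts on PUCL@CNT1 (differentiation, then maintenance medium), against 13.4% and 11.3% on PUCL, and of the 5 astrocyte markers 1, S100b, was lower on PUCL@CNT1 (edgeR adjusted p 0.00578). The part of either in the platform values was not tested.

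In maintenance medium all 7 had lower levels on PUCL@CNT1 than on PUCL, with log2 ratios from -1.52 (Mvk) to -0.01 (Idi1), the last with an interval that includes 0 and a value of 0.02 when scaled by total counts. Of the 10516 genes tested, 5048 had ratios below 0 in this comparison. Mvk was the 1 of 7 that met the size rule, at 2.87-fold lower (interval 2.32 to 3.58), where 13.9% of all genes were lower by that rule. The PUCL maintenance library held the highest level of all 7 enzymes, as it did for 23.4% of all genes, although for Idi1 the PUCL@CNT1 maintenance library was level with it within counting error. That library stands under both the platform ratio in maintenance medium and the medium ratio on PUCL, so those 2 comparisons share it.

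In differentiation medium 0 of the 7 met the size rule, with 15.6% of all genes lower and 15.2% higher by it. The log2 ratio of PUCL@CNT1 over PUCL ran from -0.84 (Mvk) to 0.68 (Fdps), and 6 of the 7 were below 0, as were 5399 of the 10516 genes tested. Hmgcs1 (-0.01) and Mvd (-0.09) had intervals that include 0. Fdps was 1.61-fold higher on PUCL@CNT1 in this medium (interval 1.46 to 1.77) and 1.29-fold lower in maintenance medium (1.21 to 1.37). Opposite directions of this kind, with both intervals clear of 0, were found for 20.5% of all genes.

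**Figure D3:**
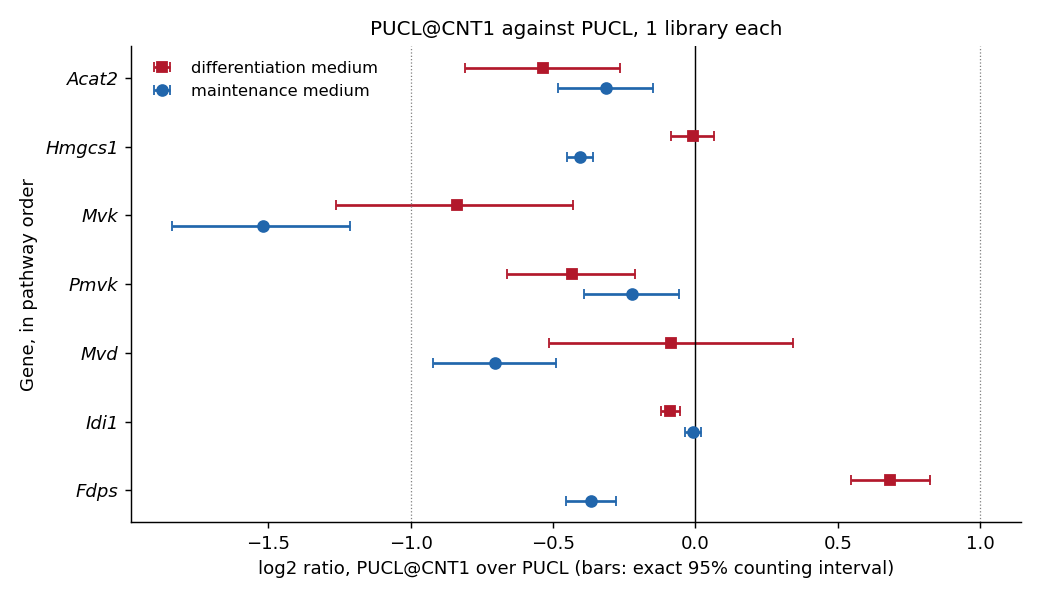
Log2 ratio of PUCL@CNT1 over PUCL (horizontal axis) for each enzyme gene in pathway order from top to bottom, in differentiation medium (squares) and maintenance medium (circles), with bars for the exact 95% counting interval and dotted lines at 2-fold. All 7 maintenance points are below 0, with Idi1 at -0.01 (0.02 under total counts), and Fdps in differentiation medium, at 0.68, is the 1 point above 0.

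The log2 platform ratio in differentiation medium minus that in maintenance medium was largest for Fdps, at 1.05 (95% interval 0.89 to 1.21). It was 0.68 for Mvk (0.18 to 1.18), 0.62 for Mvd (0.15 to 1.08) and 0.40 for Hmgcs1 (0.31 to 0.48). Idi1 had -0.08 (-0.12 to -0.04), and the intervals of Acat2 (-0.22) and Pmvk (-0.21) included 0. The 5 intervals without 0 are to be read against 63.5% of all genes, since these normal intervals cover counting error only and no test of this change is possible with 1 library per combination.

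The genes that feed the pathway and the sterol genes after it were lower in differentiation medium as well, while no gene of the prenyl branch passed. Of 5 genes of acetyl-CoA supply and fatty acid synthesis, 4 fell in edgeR: Acss2, which makes acetyl-CoA from acetate (fitted log2 -2.92, adjusted p 6.07e-11), Acly, which makes it from citrate (-1.28, 1.12e-06), the citrate carrier Slc25a1 (-1.75, 1.98e-05) and the fatty acid synthase Fasn (-1.58, 4.82e-06). The list's median was -1.58. These lists were chosen with earlier results of these data known.

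Of 12 genes of the sterol branch, from squalene to cholesterol, 7 fell and 0 rose in edgeR, with a median fitted log2 change of -1.19. Fdft1, which draws farnesyl diphosphate into squalene, fell by 1.07 (SE 0.289, adjusted p 0.0198). The others were Hsd17b7 (-2.42, 0.0165), Tm7sf2 (-1.41, 0.0209), Sc5d (-1.40, 0.00152), Nsdhl (-1.29, 0.01), Msmo1 (-1.24, 5.92e-07) and Cyp51 (-1.14, 9.04e-06), which act on the sterol ring and its methyl groups. In DESeq2 3 of these 12 fell.

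Of 14 prenyl branch genes, which make longer isoprenoids, attach them to proteins or use them for dolichol and ubiquinone, 12 were tested and 0 passed in edgeR, with 0 at an unadjusted p under 0.05 and 0 in DESeq2 and limma-voom. Their median fitted log2 change was -0.33. Ggps1, which extends farnesyl diphosphate, stood at 254 and 176 counts in differentiation medium on PUCL@CNT1 and PUCL, against 282 and 296 counts in maintenance medium (fitted log2 -0.48, adjusted p 0.882). Depth differed within this list. Rabggta had 1 to 30 counts per library (SE 5.62) and Pggt1b 0 to 24 (SE 4.43), so that they did not pass says little. Rabggtb and Nus1 had 680 or more counts in every library (SE 0.29 and 0.3), with fitted log2 changes of -0.305 and -0.206. The difference between the branches was not tested.

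**Figure D4:**
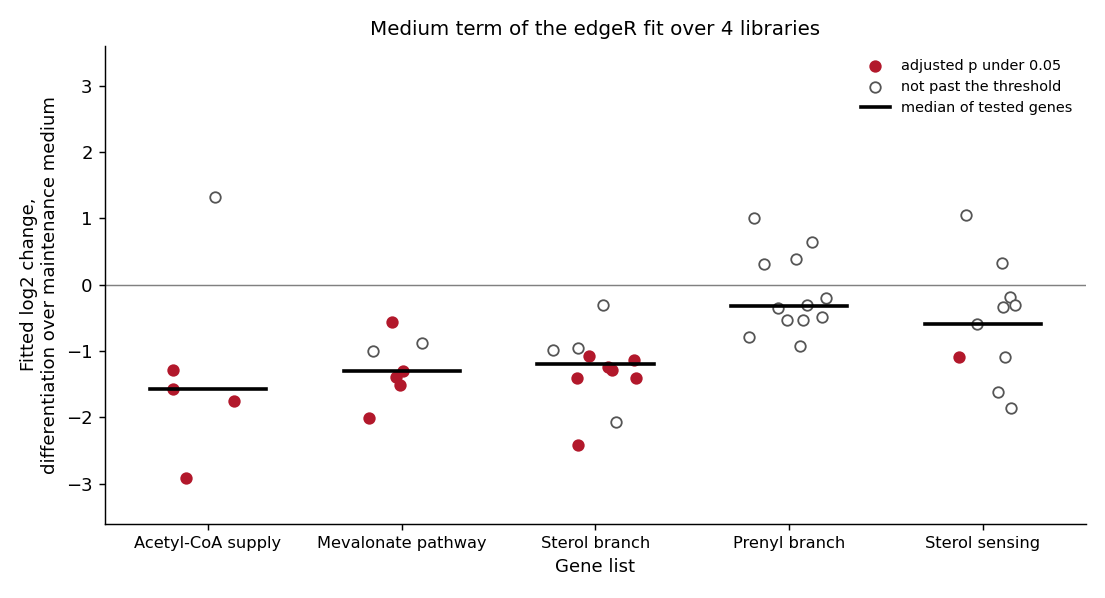
Fitted log2 change of the medium term (vertical axis, differentiation over maintenance) for each tested gene of 5 lists, from edgeR over 4 libraries; filled points passed the adjusted threshold of 0.05 and lines are list medians. The medians were -1.58, -1.31, -1.19, -0.33 and -0.60 from left to right, and 2 genes beyond the axis, neither past the threshold, are not drawn.

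Among 15 genes of sterol sensing, uptake and export, 11 were tested and 1 fell in edgeR: Insig1, which holds SREBP in the endoplasmic reticulum and is itself induced by it (fitted log2 -1.09, SE 0.32, adjusted p 0.0408). Its adjusted p was 0.174 at most under the other settings with all 4 libraries and 0.11 to 0.784 with 1 library left out, where it passed in 0 of 4 fits. DESeq2 called 0 of the 11, with 1 at an unadjusted p under 0.05, and limma-voom called 1. Srebf2, the regulator itself, stood at 1820 and 2076 counts in differentiation medium on PUCL@CNT1 and PUCL, against 2149 and 2713 counts in maintenance medium, and did not pass (fitted log2 -0.34, adjusted p 0.607).

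Acat1, the mitochondrial thiolase, is a paralog of Acat2 that serves ketone bodies and amino acid breakdown and not the mevalonate pathway. It had 918 and 917 counts in differentiation medium on PUCL@CNT1 and PUCL, against 617 and 877 counts in maintenance medium, with a fitted log2 change of 0.29 (SE 0.292, edgeR adjusted p 0.886). Idi2, a paralog of Idi1, had 0 counts in all 4 libraries. A count of 0 allows up to 3 counts, which is 0.451 to 0.48 CPM in these libraries.

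The mean profile of the 7 enzymes, as log2 CPM centred on each gene's mean over the 4 libraries, was -0.71 and -0.52 in differentiation medium on PUCL@CNT1 and PUCL, against 0.36 and 0.87 in maintenance medium. Of 6197 other genes that averaged at least 100 counts, the 5 nearest by Euclidean distance over these 4 libraries were Cyp51 (distance 0.13), Acly (0.16), Insig1 (0.17), Il1rap (0.21) and Klf16 (0.22). The enzymes themselves lay at 0.32 (Hmgcs1, Acat2) to 0.89 (Mvk) from their own mean. The 5 genes named were nearer to it than any of the 7, but they were picked as the nearest of 6197 and the 7 were not. Likeness over 4 libraries is a description and was not tested.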

How the data were processed

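The authors deposited raw counts per gene symbol, 1 table per library, from QuantSeq 3′ end libraries made from 500 ng of total RNA, per the labels' protocols; Bowtie2, bedtools and rn6 are named in the submitters' processing notes. Versions, annotation, strand setting and filters are not given in the sources used here, so overlapping genes on opposite strands could not be told apart. Reads come from the 3′ end of transcripts, so counts were not divided by length, and levels of different genes were not compared.

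From these counts, rows of 1 symbol were summed (149 symbols, 0 of the 7 enzymes), 6365 symbols under 10 counts in every library were left out, libraries were scaled by TMM (factors 0.97 to 1.03), and edgeR 4.0.16 (R 4.3.3) was fitted with 87.2 prior degrees of freedom; standard errors follow from its F statistic. Pair ratios add a prior count of 0.5 and carry Clopper-Pearson 95% intervals, which cover counting error only, since reads have no molecular identifiers. The edgeR p-values rest mostly on a spread borrowed from other genes (87.2 prior against 1 residual degree of freedom). With 1 library per group they do not measure the scatter between cultures. Alternatives used DESeq2 1.42.0, limma 3.58.1, other scalings and filters, and fits without 1 library. Members and lists were chosen with earlier results of these data known. The text names all 7 enzymes, every gene of the other lists past the edgeR threshold, Srebf2, Insig1 and the 5 nearest profiles. Tcp1, Wdr37, Ggps1, Rabggta, Pggt1b, Rabggtb, Nus1 and 2 paralogs were added for context, as were the marker and neighbour values. Some genes of these lists are not reported here.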

Additional observations from a re-analysis of the deposited data

Results flagged for a closer look

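Fdps had platform log2 ratios (PUCL@CNT1 over PUCL) of opposite direction in the 2 media, 0.68 in differentiation medium and -0.37 in maintenance medium. This is 1 library per combination, and the difference was not tested. The other 6 enzymes had ratios below 0 in both media (Idi1 in maintenance medium was at 0.02 when scaled by total counts), and all 7 had medium ratios below 0 on both platforms. Opposite platform directions, with both counting intervals clear of 0, were found for 20.5% of all genes. Among the sterol branch genes that fell in edgeR, Fdft1 (0.61 and -0.36), Tm7sf2, Msmo1 and Sc5d had them too, and Cyp51, Nsdhl and Hsd17b7 did not.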

How the results depend on the processing

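The number of the 7 enzymes that fell with the medium was 5 in edgeR, and also 5 under median-of-ratios and total-count scaling, without ribosomal RNA entries, without the low-count filter and in limma-voom. It was 3 in DESeq2, 3 in edgeR without the platform term and 1 where a mean of at least 50 counts was required; with the platform term and 1 library left out it ranged from 0 to 3. Where 3 libraries remain, 1 medium has a single library, which is assumed to vary like the other medium's pair. All genes that fell numbered 107 in edgeR, 54 in DESeq2, 62 without the platform term, 27 under that stricter filter and 3 to 101 with 1 library left out. With platform, 0 of the 7 passed under every alternative run, which says little where few genes pass: all genes called numbered 48 in edgeR, 87 in limma-voom, 27 under total counts, 25 without the filter, 18 under median-of-ratios size factors and 0 under the stricter filter or without the medium term, and 26, 0, 9 and 2 without the PUCL@CNT1 differentiation, PUCL differentiation, PUCL@CNT1 maintenance and PUCL maintenance library. Under a looser size rule (1.5-fold, nearer bound beyond 1-fold) 7 were lower in differentiation medium on PUCL@CNT1 and 6 on PUCL (24.1% and 24.2% of all genes). By platform 2 met it in differentiation medium, 1 lower and 1 higher (24.7% and 24.6% of all genes), and 2 were lower in maintenance medium (22.4%). Fitted medium changes of all 7 stayed below 0 in all 12 alternatives, and the changes of the platform difference moved by less than their intervals. Depth limits Mvk and Mvd most, with at most 349 and 482 counts in a library. No paired analysis was possible because each group has 1 library, apart from the platform term, which sets the media against each other within platforms.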
